A study of Mus musculus with 1024 samples.

Results

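Gkn3/Nt5e-type aortic endothelial cells (ECs) are described here, a group of 192 wells among 467 eligible ECs of the mouse aorta. A well was eligible if it came from the Cd31+ gate, held at least 20000 counts on genes and 500 detected genes, had at least 1 count of Cdh5, and had a summed level of the MHC class II genes H2-Aa, H2-Ab1, H2-Eb1 and Cd74 under 1000 CPM (a gene's counts scaled to 1000000 counts on all genes of a well or sum). Each eligible well received 2 scores, the mean z-score of Gkn3, Nt5e, Bpgm, Fbln5 and Col8a1 (Gkn3 side) and the mean z-score of Frzb, Thbs1, Calcrl, Procr and Smoc1 (Frzb side), from log-transformed counts per 10000. Wells whose Gkn3 side exceeded the Frzb side by more than 0.3 were taken as members, and the other 275 eligible wells are called the rest. The members were thus chosen on measured values, and every contrast of members with the rest is given as a description with no test.

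The study asked how loss of AmotL2, a junctional scaffold protein of the angiomotin family, changes the aortic endothelium. Aortic cells of mice aged 3 months were sorted by flow cytometry after depletion of Cd45+ cells and sequenced as single cells with Smart-seq2, which reads full-length cDNA of polyadenylated RNA and uses no molecular identifiers. Of 1024 wells, 896 came from the Cd31+ gate and the others from the Cd31- gate. The labels give WT and KO wells the same strain, Amotl2flow/flow / Cdh5-RREert /ROSA26-EYFP, on what the methods describe as a C57BL/6 background: a loxP-flanked Amotl2 gene, a tamoxifen-inducible Cre recombinase driven by the Cdh5 promoter, which acts in ECs, and an EYFP reporter that is switched on by the same Cre. The methods describe tamoxifen injection of adult mice to delete Amotl2, and the tamoxifen treatment of the WT mice of this experiment was not given in the sources used here. Each genotype was prepared in 2 separate preparations (WT 1, WT 2, KO 1 and KO 2, by the sort number in the labels) from 6 mice per genotype in all, and the labels name no single mouse, so the preparation was the replicate (n = 2 per genotype). WT and KO were sorted into separate plates in preparation 1, where plate and genotype cannot be told apart, but shared 1 plate in preparation 2.

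The large arteries are lined by a single layer of ECs that is not uniform. Arterial identity rests on Notch signalling and on transcription factors such as Sox17 and Hey1 and Hey2, and ECs of the aorta also help to build and maintain the elastic intima. Of the genes that mark the group, Gkn3 (gastrokine 3) encodes a secreted BRICHOS-domain protein that is used as a marker of arterial ECs, Nt5e encodes CD73, the surface enzyme that makes adenosine from AMP, Bpgm encodes bisphosphoglycerate mutase, Fbln5 encodes fibulin-5, which organises elastic fibres, and Col8a1 encodes a chain of the short-chain collagen VIII. On the other side of the score, Frzb encodes a secreted Wnt antagonist, Thbs1 encodes thrombospondin-1, Calcrl encodes the receptor for adrenomedullin and calcitonin gene-related peptide, Procr encodes the endothelial protein C receptor, and Smoc1 encodes a secreted modulator of BMP signalling. In GRCm38 with GENCODE M21, Gkn3 lies at chr6:87383256-87388935 (minus strand), Nt5e at chr9:88327197-88372092 (plus strand), Bpgm at chr6:34476207-34505613 (plus strand), Fbln5 at chr12:101746565-101819055 (minus strand) and Col8a1 at chr16:57624258-57754737 (minus strand). All are protein-coding genes, and the counts cover their annotated exons.

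Of the 192 members, 33 came from WT 1, 26 from WT 2, 104 from KO 1 and 29 from KO 2. The depth of a member well had a median of 157572 counts in WT 1, 173266 in WT 2, 280480 in KO 1 and 77312 in KO 2, and was higher than that of the rest in each of the 4 samples (117253, 153337, 258402 and 58967). The summed counts of the members ranged from 3956632 to 33915906 per sample. WT 1 stood apart before any selection on the score: 155 of the 172 wells that the limit on MHC class II genes left out were WT 1, against 3 from WT 2, 7 from KO 1 and 7 from KO 2. In the rest of WT 2, a single well held 2000302 of 6135513 counts. Close to the threshold, 18 members lay between 0.3 and 0.4 and 15 other wells between 0.2 and 0.3. The closest members had score differences of 0.302, 0.304 and 0.304, and the closest wells outside had 0.275, 0.272 and 0.259. The threshold thus cut a continuous range and separated no gap.

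**Figure D1:**
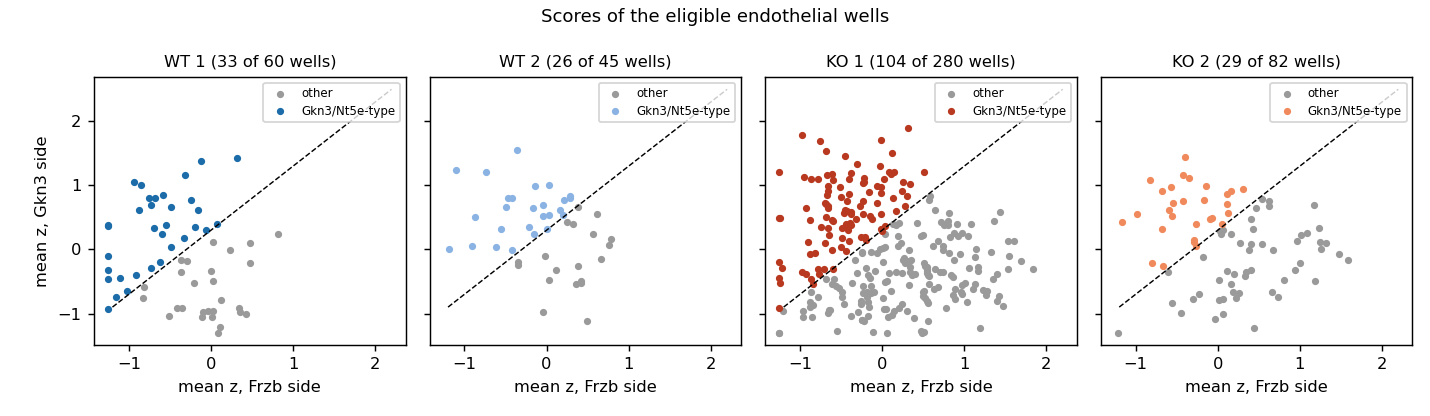
Each point is 1 eligible endothelial well, with its mean z-score of the Frzb side on the x axis and of the Gkn3 side on the y axis, in 1 panel per sample. The dashed line is the threshold of 0.3, coloured points are the 33, 26, 104 and 29 Gkn3/Nt5e-type wells and grey points the rest, and the points form a continuous cloud across the line.

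The endothelial label of these cells was checked against markers. The summed level of 15 endothelial markers was 16981 to 18198 CPM in the members of the 4 samples, 16349 to 18539 CPM in the rest and 110.1 to 1452 CPM in Cd31- wells. Pecam1, which encodes Cd31, was detected in 100% of member wells, at 7499 CPM in WT 1, 7791 in WT 2, 7932 in KO 1 and 7027 in KO 2. Cdh5 (VE-cadherin) had 202, 195, 342 and 219 CPM in the members and 185, 214, 268 and 209 CPM in the rest, in the order WT 1, WT 2, KO 1 and KO 2, which is kept below. The 9 leukocyte markers summed to at most 4.80 CPM in members, the 9 erythroid markers to at most 1.26 CPM, and the 5 adipocyte markers were at 0. The gate and the required Cdh5 count fixed part of this, so Pecam1 and Cdh5 are no check of the endothelial label. Both are among the 15 endothelial markers. The sums of the 15 overlapped between members and rest, so they do not check the Gkn3/Nt5e type. Smooth muscle markers (11 genes) summed to 351 to 930.4 CPM in members and 771 to 2028 CPM in the rest, lower in members within each sample, and to 22414 to 56901 CPM in Cd31- wells, and fibroblast markers (11 genes) to 416 to 569 CPM against 725 to 1359.9 CPM in the rest. None of the 11 smooth muscle or 11 fibroblast markers was at 0 in all samples of the members.

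The genes of the Gkn3 side, which the rule used, stood as follows. Gkn3 had 1582 CPM in WT 1, 866 in WT 2, 1457 in KO 1 and 1143 in KO 2 in the summed counts of the members, and 155, 506, 449 and 423 CPM in the rest. Every member sum lay above every sum of the rest, and a Gkn3 count was found in 92.2% of member wells and 70.2% of the others (90.6% and 64.4% after thinning each well to 20000 counts). Single wells spread widely, from 0 to 6866 CPM in the members of WT 1 with a median of 702 CPM, and from 0 to 5758 CPM in KO 1 with a median of 1146 CPM. Gkn3 was thus not required for membership, and 15 members had no count of it, of which 5 were WT 1, 9 KO 1 and 1 KO 2. In the Cd31- wells, which should lack the gene, 1 of 108 had a Gkn3 count (0.926%, 95% Clopper-Pearson interval 0.0234% to 5.05%) at a median depth of 117926 counts. Intervals of this kind cover counting error only.

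Nt5e had 381, 573, 495 and 392 CPM in members and 67.7, 242, 112 and 151 CPM in the rest. It was found in 0 of 108 Cd31- wells, which allows a share of up to 2.78% taken as 3 wells of 108 (Clopper-Pearson upper limit 3.36%). Bpgm was the steadiest of the genes between the member sums, with 606, 602, 627 and 548 CPM in members and 96.1, 199, 236 and 284 CPM in the rest. Fbln5 was the most abundant, with 2569, 3724, 3391 and 2769 CPM in members against 963, 1232, 1450.2 and 2259.8 CPM in the rest. It was not restricted to ECs, since 98.1% of Cd31- wells had a count, at 619 to 1382 CPM. Col8a1 had 173, 155, 161 and 219 CPM in members and 179.7, 7.01, 20.5 and 38.9 CPM in the rest. Its WT 1 sums were about level, and 49.2% of the Col8a1 counts of the rest of WT 1 came from a single well, while 69.3% of member wells and 17.8% of the others had a count.

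The marker genes overlapped in single wells, and not every member held all of them. The rule chose members on these genes, so a higher share in members than in the rest was fixed in advance. The shares below are without thinning, and the median depth was higher in members in each of the 4 samples. At least 4 of the 5 genes of the Gkn3 side had a count in 162 of 192 members (84.4%) and in 108 of 275 other wells (39.3%), and all 5 in 102 and 22 wells. Among members, the share with at least 4 was 69.7% in WT 1, 92.3% in WT 2, 82.7% in KO 1 and 100% in KO 2. The genes of the Frzb side were not absent from members: at least 4 of those 5 had a count in 47.4% of members and 74.2% of the rest. Frzb had 35.1, 74.0, 101 and 105 CPM in members and 185, 214, 718 and 797 CPM in the rest, so that both KO sums of the rest lay above both WT sums. Calcrl had 116, 292, 157 and 165 CPM in members and 1466, 1021, 1049 and 1068 CPM in the rest, and Procr 283, 297, 262 and 359 CPM against 627, 657, 628 and 579 CPM. Thbs1 varied most between member sums (164, 636, 261 and 502 CPM), and Smoc1 lay above the rest in WT 1 (204 against 155 CPM) and below it in the other 3 samples.

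**Figure D2:**
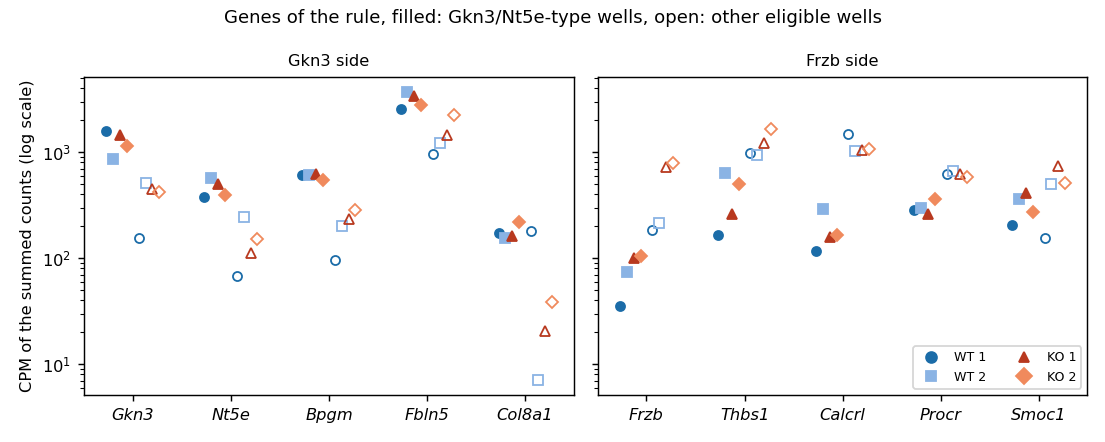
The CPM of summed counts is plotted on a log axis for the 5 genes of the Gkn3 side (left) and the 5 of the Frzb side (right), filled symbols for Gkn3/Nt5e-type wells and open symbols for the other eligible wells, with 1 symbol per sample. The 4 filled Gkn3 symbols sit between 866 and 1582 CPM and the 4 open ones between 155 and 506 CPM, while the Col8a1 symbols of WT 1 lie together.

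The share of Gkn3/Nt5e-type wells among eligible ECs was compared between genotypes. It was 55.0% in WT 1 (33 of 60, 95% Clopper-Pearson interval 41.6% to 67.9%), 57.8% in WT 2 (26 of 45, 42.2% to 72.3%), 37.1% in KO 1 (104 of 280, 31.5% to 43.1%) and 35.4% in KO 2 (29 of 82, 25.1% to 46.7%). Both KO shares lay below both WT shares, with means of 56.4% ± 1.96 (SD, n = 2) in WT and 36.3% ± 1.26 (SD, n = 2) in KO. The difference, KO minus WT, was -20.1 percentage points, -17.9 in preparation 1 and -22.4 in preparation 2, where both genotypes shared a plate. The two-sided exact permutation test over the 4 samples gave p = 0.33, the smallest p that 2 against 2 samples allow, so the test cannot pass a threshold of 0.05. Over all eligible wells, the mean Gkn3-side score was -0.12, 0.29, -0.05 and 0.08, so WT and KO overlapped. The mean Frzb-side score was -0.39, -0.04, 0.05 and 0.15, higher in both KO samples than in both WT samples. The part of each side in the difference of the shares was not tested.

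Because Frzb itself differed between KO and WT sums of the rest, the score was also computed without it, which was decided after seeing the data. The shares were then 53.3% in WT 1, 48.9% in WT 2, 37.9% in KO 1 and 36.6% in KO 2, a difference of -13.9 points. Leaving out each of the 10 genes in turn gave differences of -13.9 (without Frzb) to -21.6 points (without Calcrl). A stricter threshold of 0.6 gave 36.7%, 33.3%, 29.3% and 24.4%, a difference of -8.16 points. With each well thinned to 20000 counts the shares were 45.1%, 57.5%, 36.4% and 35.9%, and with wells of at least 100000 counts they were 56.4%, 56.2%, 37.0% and 48.0%, where the KO 2 value rested on 25 wells. The limit on MHC class II genes left 60 of 215 wells of WT 1, and without that limit the shares were 47.0%, 50%, 34.8% and 31.5%, a difference of -15.3 points. Shares are of sorted wells that passed the depth and marker limits, and a change in the number of these cells in the aorta and a change in the genes of the score cannot be told apart.

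**Figure D3:**
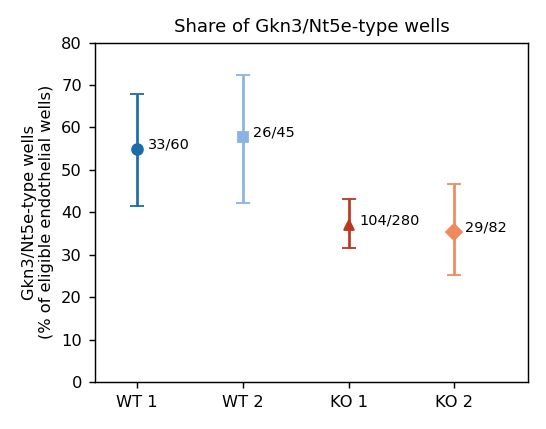
The y axis gives the percentage of eligible endothelial wells that were Gkn3/Nt5e-type, in the 4 samples, with 95% Clopper-Pearson intervals as bars and the numbers of wells as text. WT 1 and WT 2 sit at 55.0% and 57.8%, KO 1 and KO 2 at 37.1% and 35.4%, and the WT and KO intervals overlap within each preparation.

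Beyond the genes of the rule, the summed counts of members and rest were compared within each sample for 8470 genes with a mean of at least 10 CPM. Differences are on the scale of log2(CPM + 1). In all 4 samples, 19 genes (0.224% of those compared) were at least 2-fold higher in members and 28 genes (0.331%) at least 2-fold lower. No p-value is attached, since the same wells chose the members and gave the levels. Of the 19 higher genes, 14 had a count in at least 20% of member wells, and for 10 of the 19 a single well held at least 50% of a gene's counts in some sample.

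Of the 19 higher genes, Adra2a, which encodes an alpha-2 adrenergic receptor, had the widest gap in detection. It had 254, 184, 219.6 and 178 CPM in members and 3.98, 17.6, 38.8 and 78.2 CPM in the rest, a mean difference of 3.16 ± 1.90 (SD over the 4 samples) on the log2 scale. A count was found in 72.4% of member wells and 24.7% of the others, and in 65.1% and 17.8% after thinning. Every member sum lay above every sum of the rest, and the 2-fold rule held in all 4 samples under each of 9 alternatives that changed the selection of wells or the scale. Igf2, the insulin-like growth factor 2 gene, had 128, 78.9, 107 and 62.4 CPM in members and 13.4, 8.80, 22.2 and 21.2 CPM in the rest (2.48 ± 0.77), and was found in 60.4% and 20.7% of wells. Nhsl2, named after its values were seen, had the most even difference of the 19, with 257, 257, 265 and 326 CPM against 119.9, 117, 109.9 and 129.8 CPM (1.20 ± 0.11), in 86.5% and 74.5% of wells.

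Several of the higher genes encode secreted or receptor proteins. Pthlh, the gene of parathyroid hormone-related protein, had 84.9, 70.4, 56.1 and 87.2 CPM in members and 31.6, 16.5, 14.9 and 29.0 CPM in the rest. Prokr2, a prokineticin receptor, had 17, 38.5, 41.6 and 19.2 CPM against 2.74, 2.28, 13.8 and 5.65 CPM. Sema7a, a membrane-anchored semaphorin also named after its values were seen, had 61.0, 39.4, 52.7 and 51.1 CPM against 13.4, 15.8, 21.6 and 25.0 CPM. In each of these 3 genes the lowest member sum lay above the highest sum of the rest.

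Dkk2, which encodes a secreted modulator of Wnt signalling, had the largest median difference (4.41), but only 10.4% of member wells had a count. Its sums were 158, 22.5, 35.3 and 40.2 CPM in members and 62.7, 0, 0.899 and 0 CPM in the rest, and a single well held 36.2% to 83.2% of the counts of each member sum. Elovl4, an elongase of very long-chain fatty acids, had 17.5, 21.4, 24.1 and 53.1 CPM against 0, 1.63, 0.467 and 0 CPM, in 17.2% and 1.82% of wells, and kept the 2-fold rule under all 9 alternatives. Among the others, Akr1c14, a hydroxysteroid dehydrogenase gene, had 105, 82.2, 174 and 160 CPM against 41.8, 26.6, 67.1 and 46.9 CPM, Itm2a 61.3, 106, 102 and 84.7 CPM against 19.7, 31.5, 32.1 and 34.6 CPM, and Lmo1, a LIM-only transcriptional regulator, 47.4, 25.8, 63 and 23 CPM against 8.96, 6.52, 6.43 and 10.6 CPM. Ssu2 and Zfp772 were each found in few member wells (10.4% and 7.81%), and a single well held 34.4% to 96.6% of the Ssu2 counts and 30.4% to 88.4% of the Zfp772 counts. The median differences of Arhgap20, Baiap2l1, Glipr2 and Gramd1b, the remaining named genes, were 1.99, 1.94, 1.7 and 1.5.

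Among the 28 genes lower in members, Nkx2-3, a homeobox transcription factor gene, had the widest gap in detection. It had 0.970, 21.4, 5.90 and 4.55 CPM in members and 10.5, 109, 83.1 and 43.6 CPM in the rest (-2.86 ± 0.58), with a count in 14.6% of member wells and 56.0% of the others. G0s2, which encodes an inhibitor of the lipase ATGL, had 0.323, 7.57, 6.34 and 4.04 CPM against 34.3, 49.1, 51.9 and 54.4 CPM. Twist1, a basic helix-loop-helix transcription factor gene, had 2.59, 9.13, 5.69 and 1.52 CPM against 31.9, 42.9, 20.5 and 53.7 CPM. These 3 of the 28 lower genes kept the 2-fold rule under all 9 alternatives, as did 2 of the 19 higher genes, while 12 and 11 kept their direction in all 4 samples. Igfbp7, an insulin-like growth factor binding protein, had 15.5, 22.7, 17.6 and 6.82 CPM in members and 52.3, 55.1, 128 and 137 CPM in the rest, in 17.7% and 51.3% of wells. Plvap, which forms the diaphragms of endothelial fenestrae and caveolae, had 103, 157, 267 and 164 CPM against 955, 478, 631 and 386 CPM. Ctla2a, which encodes a cysteine protease inhibitor, had 39.9, 18.3, 36.9 and 63.2 CPM against 755, 53.8, 241 and 464 CPM.

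Other low genes were carried by few wells of the rest. Cd36, the fatty acid translocase gene, was the lowest by its median (-4.94), with 0, 0, 83.3 and 0 CPM in members and 539, 2.12, 239 and 301 CPM in the rest, but 98.8% of its KO 1 member counts came from 1 well and only 8.36% of the rest had a count. Lbp had a count in 12.7% of the rest and 2.60% of members, and Sele (E-selectin) in 10.2% and 3.65%. Glt8d2, Tbccd1 and Mustn1 had median differences of -2.64, -2.08 and -1.92. Tpm2, Myh11 and Cnn1, which are smooth muscle genes, were also among the 15 lowest, with median differences of -3.66, -2.72 and -2.62. They moved with the smooth muscle markers as a whole: 14 of 192 member wells (7.29%) and 37 of 275 other wells (13.5%) had more than 1000 CPM of the 11 markers, with a median of 158 and 140.3 CPM. The part of such wells in the difference was not tested. Tpm2 and Myh11 turned to higher in members by their median with a threshold of 0 and with thinned wells.

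**Figure D4:**
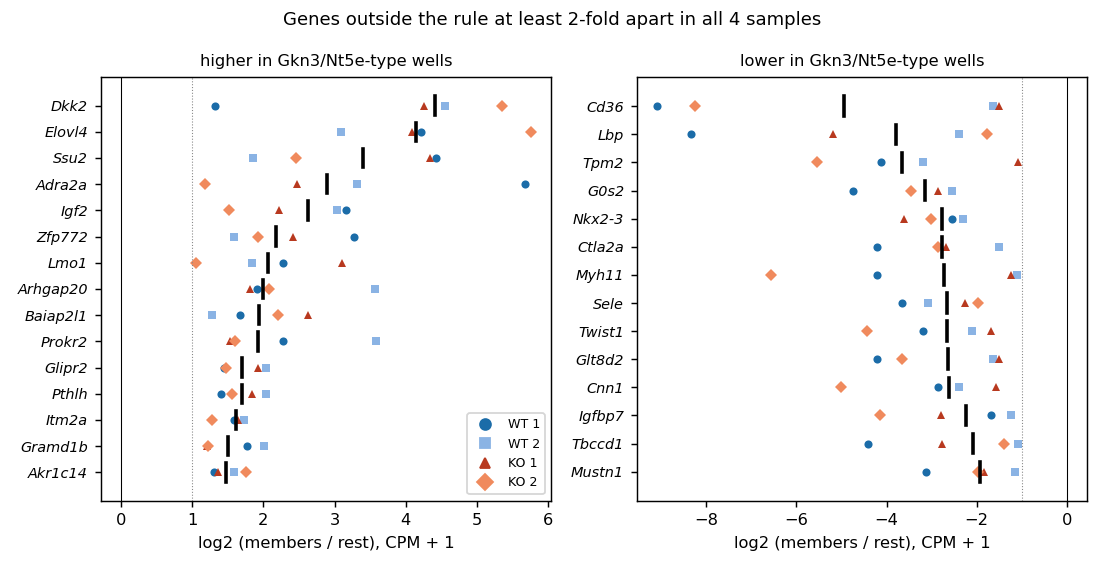
For the 15 genes with the largest (left) and 14 of the 15 with the smallest (right) median difference, each symbol is the log2 ratio of CPM + 1 in Gkn3/Nt5e-type wells over the rest in 1 sample, black ticks are medians and the dotted line marks a 2-fold difference. Itm2a and Akr1c14 have symbols close together, while those of Cd36, Myh11 and Adra2a spread over 4 or more log2 units.

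The arterial and Notch genes that differed the same way in all 4 samples were all higher in members. Of 26 listed genes, 23 had a mean of at least 10 CPM, 8 were higher in members in all 4 samples and 0 lower, against 7.97% higher and 9.41% lower of all genes compared. The median of the list was 0.37 on the log2 scale, against -0.02 over all 8484 genes at this level, those the rule used included. Sox17, a transcription factor gene of arterial identity, had 243, 235, 295 and 269 CPM in members and 104, 121, 116 and 98.2 CPM in the rest, in 91.1% and 66.5% of wells. Mecom, also a transcription factor gene, had 124, 153, 126 and 138 CPM against 46.3, 82.0, 59.5 and 74.7 CPM. Stmn2, stathmin 2, had 902, 658, 581 and 718 CPM against 131, 343, 110 and 282 CPM. Gja4, a gap junction protein, had 969, 699.8, 762 and 687 CPM against 231, 491, 545 and 498 CPM, while Gja5, another gap junction protein, was higher in members only in WT 1 and KO 1. The sums of Sox17, Mecom, Stmn2 and Gja4 did not overlap between members and rest. The summed level of the arterial list in the rest was lower in WT 1 (7747 CPM) than in the other samples (10731 to 13322 CPM).

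The summed capillary and venous lists were lower in members in WT 1, KO 1 and KO 2 and not in WT 2, and some of their genes were found in few wells. Of 17 capillary genes, 9 were compared, with a median of -1.91, and 1 (Cd36) was lower in all 4 samples. Over all genes compared, 9.41% were lower in all 4 samples. Medians of the single capillary genes ran from -4.94 to 1.06. The capillary genes Aqp1, Kdr and Fabp4 were lower in members in WT 1, KO 1 and KO 2 and not in WT 2. Aqp1 had 14.6, 3.56, 12.8 and 7.83 CPM in members and 904, 0.652, 94.0 and 113 CPM in the rest. Of 13 venous genes, 11 were compared, with a median of -0.47, and 2 were lower in all 4 samples. Nr2f2, the venous transcription factor gene, had 0, 0, 0.737 and 0 CPM in members and 235, 0, 10.8 and 4.95 CPM in the rest, in 1.04% and 9.45% of wells. The venous list summed to 5459.9, 4968, 4537 and 5577 CPM in members and 11042, 4867, 5001 and 5875 CPM in the rest. The capillary list summed to 2503, 1257, 1380.2 and 1513 CPM in members and 4542, 1160.1, 1603 and 2069.7 CPM in the rest. The rest of WT 1 stood apart here, with the highest sum of both lists.

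The lists of the matrix and of the enzymes related to the markers had medians of -0.28 to -0.03 on the log2 scale. Over all genes compared, 7.97% were higher and 9.41% lower in all 4 samples. Of 27 elastic fibre and fibulin genes, 18 were compared, with a median of -0.12, and 5 were higher and 3 lower in all 4 samples. Fbln5 of the rule was among the 5, as were Eln (elastin; 717, 805, 999 and 696 CPM against 228, 526, 849.8 and 586 CPM) and Mgp, the matrix Gla protein gene (8315, 7065, 6524 and 8558 CPM against 4640, 4795, 4572 and 6893 CPM). Of 34 collagen genes, 19 were compared with a median of -0.28, and 5 were lower and 1 higher in all 4 samples. Col8a1 of the rule was the highest by its median (2.69). Of 26 adenosine and nucleotide genes, 14 were compared with a median of -0.28, and 5 were lower and 2 higher in all 4 samples. Among the 5 were Adk, adenosine kinase (78.4, 147, 129 and 151 CPM against 93.6, 175, 153 and 195 CPM), and Entpd1, which encodes CD39, the enzyme upstream of CD73 (169, 249, 219 and 147 CPM against 471, 282, 303 and 309.8 CPM). Of 28 glycolysis genes, 18 were compared with a median of -0.03, and Bpgm was the only 1 of them that was higher in all 4 samples.

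Flow-responsive, junction and inflammatory genes went in different directions. Of 10 laminar flow genes, 8 were compared, and 4 were lower in members in all 4 samples and 0 higher. Over all genes compared, 9.41% were lower and 7.97% higher in all 4 samples. Klf2 had 126, 115, 91.4 and 71.5 CPM in members and 151, 140.5, 107 and 99.9 CPM in the rest. Klf4 had 118, 167, 106 and 151 CPM against 236, 295, 161 and 152 CPM. Genes raised by tissue dissociation moved with them, with 8 of 14 compared lower in members in all 4 samples and summed levels of 2670.2, 6356, 2959 and 2419 CPM in members against 4452, 7988, 3758 and 3833 CPM in the rest. Their part in the levels of Klf2 and Klf4 was not tested. Jam2, junctional adhesion molecule B, had 397, 417, 354 and 399 CPM against 619.6, 710.1, 629.5 and 611 CPM. Of 14 chemokine and adhesion genes compared, 4 were lower and 1 higher in members in all 4 samples, with a median of -0.05. Cx3cl1 (fractalkine) had 292, 87.8, 195 and 107 CPM against 92.3, 31.1, 90.1 and 77.3 CPM. Cldn5, claudin 5, had 1659, 1411, 1513 and 1509 CPM against 584, 1167, 673 and 776 CPM. Of 20 interferon genes compared, 5 were higher and 1 lower in members in all 4 samples, with a median of 0.42.

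Of the 49 Wnt modulators and receptors, 15 were compared with a median of -0.19, and Dkk2 and Frzb, at opposite ends, were the only ones at least 2-fold apart in all 4 samples. The remaining lists had medians between -0.31 and 0.26 on the log2 scale, namely -0.17 for TGF-beta and BMP genes (29 compared), -0.09 for coagulation genes (17), -0.31 for vasoactive genes (15), -0.19 for guidance genes (21), -0.08 for basement membrane and integrin genes (20), 0.15 for mechanosensing genes (15), 0.12 for Hippo and angiomotin genes (20), 0.20 for nuclear lamina genes (7), 0.00 for endothelial transcription factors (33), -0.05 for chemokine and adhesion genes (14), 0.01 for endothelial markers (15) and 0.26 for Hox genes (10). Of the 29 TGF-beta and BMP genes, 9 were lower and 2 higher in members in all 4 samples. Of the 17 coagulation genes 5 were lower and 1 higher, and of the 15 vasoactive genes 5 were lower and 1 higher. Of the 7 nuclear lamina genes, 3 were higher and 0 lower. Over all genes compared, 9.41% were lower and 7.97% higher in all 4 samples. MHC class II genes, of which 4 were used to choose wells, had a median of -0.78 (5 compared), and at most 2 genes each were compared for lymphatic, pericyte and mesothelial markers.

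KO was then compared with WT within the Gkn3/Nt5e-type wells, on counts summed per genotype and preparation. The targeted gene, Amotl2 (chr9:102716672-102733418, plus strand), had 65.5 CPM in WT 1, 88.7 in WT 2, 44.2 in KO 1 and 34.6 in KO 2. Both KO sums lay below both WT sums, with a fitted log2 fold change of -1.0 (SE 0.41), an unadjusted p of 0.0363 and an adjusted p of 1.00 in edgeR's quasi-likelihood test. In the rest the sums were 55.5, 95.5, 56.5 and 58.0 CPM. Counts per gene do not resolve the deleted exon, so transcripts that lack it are counted as well. EYFP, the reporter, had 0 and 0.446 CPM in the members of WT 1 and WT 2, although their strain label lists it, and 93.1 and 86.4 CPM in KO 1 and KO 2. A count of EYFP was found in 0 of 33 member wells of WT 1, which allows a share of up to 9.09% (Clopper-Pearson upper limit 10.6%). It was found in 1 of 26 in WT 2 (2 counts), 78 of 104 in KO 1 (75.0%, 95% Clopper-Pearson interval 65.6% to 83.0%) and 23 of 29 in KO 2 (79.3%, 60.3% to 92%). In the rest of KO 1 and KO 2 the shares were 80.1% (73.4% to 85.7%) and 86.8% (74.7% to 94.5%), so that the intervals of members and rest overlapped in each preparation.

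EYFP was the only 1 of 10860 genes tested (0.00921%) that passed an adjusted p of 0.05 in the members, with an adjusted p of 0.0259 by edgeR with Benjamini-Hochberg adjustment. The call ended with a threshold of 0.6 (adjusted p of 0.177, fitted log2 fold change 8.05) and with wells of at least 100000 counts (0.0513 and 8.66), against a fitted value of 8.77. At an unadjusted p of 0.05, 341 genes passed. In simulated counts at the levels and spread of the member sums, the test recovered 3 of 200 genes changed 2-fold (1.5%). It recovered 150 of 200 genes changed by 3 log2 units (75%). The few calls thus do not show that few genes differed. With the preparation as a block, 2 genes passed, EYFP and Prc1, a gene of cytokinesis, of which 93.6% of the WT 1 counts came from a single well. With DESeq2, 12 genes passed, of which 3 had higher and 9 lower levels in KO. Leaving out WT 1 gave 1 call, WT 2 38, KO 1 7 and KO 2 3, where the lone sample left in a genotype is assumed to vary like the other. In the rest, 0 of 11028 genes (0%) passed in edgeR, 436 passed at an unadjusted p of 0.05, and DESeq2 called 23. Without WT 1 the rest gave 463 calls and without WT 2 579, and without either KO sample 0.

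Whether the difference between KO and WT itself differed between members and the rest was tested with an interaction of class and genotype. In simulated counts of the same kind, the rest was given the levels and spread of the members. This test recovered 0 of 200 genes changed 2-fold, and 128 of 200 changed by 3 log2 units with 8 false calls. Of 11781 genes, 0 (0%) passed in edgeR and 454 passed at an unadjusted p of 0.05, and with a block of class by preparation 5 passed, Adra2a, Cd36, Coch, Prc1 and Top2a. Without WT 1 there were 56 calls and without WT 2 329, and without either KO sample 0. Adra2a, the higher gene with the widest gap in detection, had a fitted difference of differences of -2.72 (SE 0.83, adjusted p of 1.00 in edgeR) in the fit without the block, with the KO sums of the rest (38.8 and 78.2 CPM) above its WT sums (3.98 and 17.6 CPM) and member sums that overlapped between genotypes.

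The marker genes of the group were near level between genotypes in the members, which were chosen on these genes in both genotypes. Fitted log2 fold changes, KO over WT, were 0.07 for Gkn3, -0.14 for Nt5e, -0.06 for Bpgm, -0.06 for Fbln5 and 0.20 for Col8a1. No p-value is given for them. The KO and WT sums of each of these 5 genes overlapped. Since the rule used these levels, this is a description of wells chosen to have them.

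As a description, 113 genes (1.35% of 8373 with a mean of at least 10 CPM over the 4 sums) were at least 2-fold higher in KO than in WT members in both preparations, and 117 genes (1.40%) at least 2-fold lower. They were mostly low genes in few wells: the median of their mean levels was 17.4 CPM among the higher and 18.5 CPM among the lower genes, and only 3 genes in each direction had a count in at least 50% of member wells. For 40 of the 113 higher and 67 of the 117 lower genes, a single well held at least 50% of the counts in at least 1 of the samples in which the gene was high. After EYFP, the genes with the largest median difference were Trps1 (0.647 and 6.46 CPM in WT, 17.1 and 34.1 CPM in KO), Trpm6, a magnesium-permeable channel gene (5.18 and 2.01 CPM in WT, 38.3 and 17.2 CPM in KO), and Angpt2, a Tie2 ligand gene (0.809 and 7.57 CPM in WT, 6.87 and 62.4 CPM in KO). Of the Angpt2 counts in KO 1, 91.4% came from 1 well, and its WT and KO sums overlapped. The others included Zbtb2, Chchd4, Osgin2 and Ints12, each with an adjusted p of 1.00 in edgeR.

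The largest differences downwards lay in genes expressed by a minority of WT members. Tmem100, a transmembrane protein gene regulated by BMP signalling through ALK1 in ECs, had 77.3 and 21.4 CPM in WT and 1.71 and 0 CPM in KO, with counts in 24.2% and 7.69% of WT and 2.88% and 0% of KO member wells, and a fitted log2 fold change of -5.53 (SE 1.12; adjusted p of 1.00 in edgeR, 0.233 with the preparation as a block). Its adjusted p passed under other settings, at 6.32e-06 with DESeq2, 1.43e-07 in edgeR with no filter on low counts, 0.0227 without WT 2 and 0.0451 without KO 1. Hapln1, a link protein that binds hyaluronan and proteoglycans, had 170.5 and 17.8 CPM in WT and 14.4 and 0 CPM in KO. Vcan, which encodes versican, the proteoglycan partner of such link proteins, had 186 and 51.0 CPM in WT and 29.7 and 2.02 CPM in KO. Slc6a6, the taurine transporter gene, had 952 and 182 CPM in WT and 139 and 4.55 CPM in KO, and Alpl, tissue-nonspecific alkaline phosphatase, 86.4 and 22.5 CPM against 19.7 and 0 CPM. In each of these 5 genes both KO sums lay below both WT sums. Of the 12 listed endocardial and valve genes, 4 had a mean of at least 10 CPM in members (Nfatc1, Cgnl1, Hapln1 and Vcan), and the 4 had lower sums in KO in both preparations, where 23.1% of all genes were lower and 26.1% higher. None of the 4 passed edgeR's test. Hapln1 and Vcan were already named for their large differences downwards, and the same few wells held nearly all of their WT 1 member counts. Their direction was thus known before the list was counted.

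Several of these genes were concentrated in the same few wells. Of 7 genes among the 10 largest downwards (Tmem100, Slc6a6, Hapln1, 8430408G22Rik, Stat4, Vcan and Alpl, chosen after their values were seen), at least 4 had a count in 13 of the 192 members, 7 of 33 in WT 1 (21.2%), 2 of 26 in WT 2 (7.69%), 4 of 104 in KO 1 (3.85%) and 0 of 29 in KO 2, which allows a share of up to 10.3%. Of the rest, 2 of 275 wells did so. In WT 1 those 7 wells held 100% of the Hapln1 counts of all members, 98.8% for Vcan, 94.4% for Tmem100, 94.2% for Slc6a6, 78.2% for 8430408G22Rik, 65.1% for Stat4 and 53.6% for Alpl. In WT 2 the 2 wells held 100% of the counts of 5 of the genes, 25.0% for 8430408G22Rik and 0% for Stat4, and in KO 1 the 4 wells held 39.2% (8430408G22Rik) to 89.7% (Tmem100). A Gkn3 count was found in 3 of the 7 WT 1 wells (median 0 CPM), in both WT 2 wells (median 530.3 CPM) and in 1 of the 4 KO 1 wells (median 0 CPM). Without the 15 wells of this kind among all eligible wells, a choice made after seeing the data, the share of Gkn3/Nt5e-type wells was 50% in WT 1, 55.8% in WT 2, 36.4% in KO 1 and 35.4% in KO 2, a difference of -17 points, and 111 genes were at least 2-fold lower in KO in both preparations, 74 of them shared with the 117. The median difference of Dkk2 between members and rest was 2.06 without them and 4.41 with them, and that of Elovl4 was 4.32 against 4.15. Prc1, Ccna2 and Mad2l1, genes of the cell cycle, completed the 10, and a single well held 93.6%, 99.8% and 68.9% of their WT 1 counts.

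**Figure D5:**
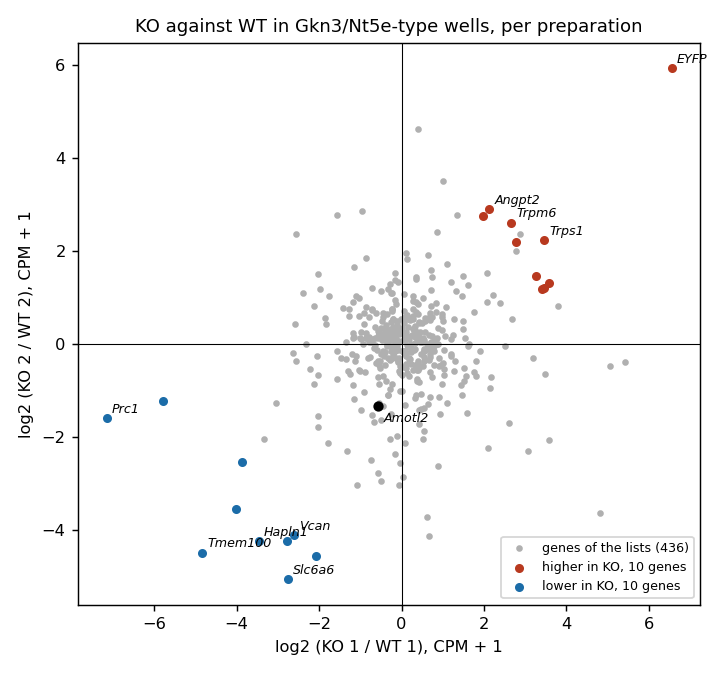
The x axis is the log2 ratio of CPM + 1, KO over WT, in the Gkn3/Nt5e-type wells of preparation 1 and the y axis that of preparation 2. Grey points are 436 genes of the fixed lists, red and blue points the 10 genes in each direction with the largest median among those at least 2-fold apart in both preparations, and the black point is Amotl2, at -0.56 and -1.33.

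The lists were also counted for KO against WT in members. No gene of the lists passed edgeR's test. The median difference of the 24 arterial and Notch genes compared was -0.08, that of 8 laminar flow genes -0.09 and that of 13 chemokine and adhesion genes -0.11, against 0.03 over all 8373 genes. Klf2 had a fitted log2 fold change of -0.59 (SE 0.32) and Sox17 of 0.22 (SE 0.26). For some lists the preparations went opposite ways: the 19 interferon genes had a median of -0.71 in preparation 1 and 0.61 in preparation 2, and the 14 dissociation genes 0.43 and -1.36.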

How the data were processed

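Aortic cells of WT and KO mice were sorted into plates by the authors and sequenced with Smart-seq2. Reads were aligned with STAR 2.7.7a to GRCm38 with ERCC and EYFP sequences added, duplicates were removed with Picard 2.22.0, and the authors deposited raw read counts per gene and well from HTSeq 0.9.1, with no normalization. The annotation release is not given in the sources used here. Of all counts, 51.9% lay on 24422 genes, 1.25% on 92 ERCC lines and 46.9% on 5 HTSeq summary lines, and the ERCC and summary lines were left out.

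The members and gene lists were chosen with earlier results of these data known. Wells were summed by genotype and preparation (4 sums for members and 4 for the rest), since wells of a preparation are not replicates. Sums were tested with edgeR 4.0.16 (R 4.3.3; filterByExpr, TMM, quasi-likelihood F test, Benjamini-Hochberg adjustment, threshold 0.05), and p-values measure the spread between 2 preparations per genotype. The scripts were tested on simulated data. DESeq2 1.42.0, other selections and other scales were alternatives, as was the preparation as a block. The labels give a sort number, which was taken as the preparation because the series describes 2 preparations, and the labels do not state that a number is shared by WT and KO. The deviations of same-numbered sums from their genotype means correlated at 0.0407 over 10860 genes in members and 0.0401 over 11028 genes in the rest. Contrasts of members with the rest used log2(CPM + 1) of sums, for genes with a mean of at least 10 CPM, and no test. Shares carry Clopper-Pearson intervals (scipy 1.17.1), which cover counting error only, since wells of a preparation are not replicates. For shares of 0, the share said to be allowed is 3 wells over the number of wells, an approximate limit that lies below the Clopper-Pearson one. No doublet caller was run, each well being its own library.

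Genes named were those of the rule, Cdh5, Amotl2 and EYFP, the 15 genes in each direction with the largest median difference among those 2-fold apart in all 4 samples, called genes, the 10 genes in each direction among those 2-fold apart between KO and WT in both preparations, and members of the lists. Gene positions are from GENCODE M21. Some genes that met this rule are not reported here.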

Additional observations from a re-analysis of the deposited data

Results flagged for a closer look

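The limit on MHC class II genes left out 172 wells that passed the other criteria. These wells entered the alternatives without that limit and none of the main comparisons above. When they were scored together with the eligible wells, 71 of the 172 (41.3%) passed the threshold of the Gkn3/Nt5e-type wells. Of these 71 wells, 69 were among the 155 wells left out of WT 1. In WT 1, 101 of 215 wells (47.0%) passed without the limit and 33 of 60 (55.0%) with it. The result stands here because these wells lie outside the main comparisons.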

How the results depend on the processing

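The difference in the share of Gkn3/Nt5e-type wells (-20.1 percentage points) kept its sign under every alternative run. It was -8.16 with a threshold of 0.6, -15.1 with thinned wells, -13.8 with wells of at least 100000 counts, -15.3 without the MHC class II limit, and -18.7 to -21.5 when 1 sample was left out. Alternatives chosen after seeing the data gave -13.9 without Frzb, -14.9 without Smoc1, -17.2 without Gkn3, -16.4 without Nt5e, -16.6 without Bpgm, -15.7 without Col8a1 in the score, and -17.0 without the wells with at least 4 of 7 genes. The preparation as a block gave -20.1 for the share, 2 called genes in members, 5 for the interaction and changed no other call.

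Calls between KO and WT in members numbered 53 with no filter, 12 with DESeq2, 0 with a threshold of 0.6, 15 with a threshold of 0, 2 with thinned wells, 0 with wells of at least 100000 counts and 1 to 38 without 1 sample, and 1 in the wells with a Y-linked count. In the rest they numbered 73 with no filter, 23 with DESeq2 and 0 to 579 without 1 sample, and for the interaction 0 to 329 without 1 sample. Genes 2-fold higher in members numbered 10 with thinned wells, 41 with a mean of at least 1 CPM and 36 to 45 without 1 sample, where fewer samples had to pass. Genes 2-fold lower numbered 15 with a threshold of 0, 10 with a pseudocount of 5 CPM, 53 with a mean of at least 1 CPM and 49 to 83 without 1 sample. Thinned wells shared 5 of their 10 higher and 7 of their 19 lower genes with the 19 and 28 of the report, and a threshold of 0.6 shared 8 of 13 and 10 of 30. Genes 2-fold higher in KO in both preparations numbered 178 with a threshold of 0.6, 69 with the mean of single wells, 61 with a pseudocount of 5 CPM and 338 with a mean of at least 1 CPM, and those 2-fold lower 178 with thinned wells, 73 without the MHC class II limit, 56 with a pseudocount of 5 CPM and 295 with a mean of at least 1 CPM. Thinned wells gave 21 of the 113 higher and 48 of the 117 lower genes. Tpm2 went to 0.19 with a threshold of 0 and 0.23 with thinned wells, and Myh11 to 0.24 and 0.08. The cause of these changes was not tested. For single genes, 673 of the values under alternatives kept their direction and call or moved by less than 1 SD, 39 moved further, 18 passed the threshold anew, 2 (EYFP) no longer passed and 4 changed sign.

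With 2 preparations per genotype the share cannot pass a test, and depth limits the genes seen in few wells.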
